A study of Mus musculus with 12 samples.

Results

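The genes examined were 10 genes of the liver endothelium, *Stab2*, *Clec4g*, *Lyve1*, *Oit3*, *Fcgr2b*, *Eng*, *Kdr*, *Pecam1*, *Plvap* and *Cd34*. They were picked by name, as the rows of a liver expression table that carry these symbols, and all 10 were found among 54532 genes. RNA came from the livers of 12 male C57BL/6J mice, 3 per group, which were placed on their diets at 5 weeks of age and kept on them for 26 weeks. ND-fed mice received a normal diet, and control mice received a high-fat diet with no supplement. HYA-treated mice received the high-fat diet with 1% HYA (10-hydroxy-*cis*-12-octadecenoic acid), a hydroxy fatty acid made from linoleic acid by gut lactic acid bacteria, and LA-treated mice received the high-fat diet with 1% linoleic acid (LA), the parent compound, which lacks the added hydroxyl group. Whole liver was sequenced, so every value is an average over hepatocytes and all other liver cells.

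The sinusoids are the capillaries of the liver. Their endothelial cells carry open pores, or fenestrae, lack a continuous basement membrane and clear material from the blood through scavenger receptors such as stabilins. In chronic liver disease these cells can lose their pores, gain a basement membrane and take on markers of ordinary capillaries, a process known as capillarization that accompanies fibrosis. The 10 genes fall into 3 roles. *Stab2*, *Clec4g*, *Lyve1*, *Oit3* and *Fcgr2b* are abundant in sinusoidal endothelium, *Eng*, *Kdr* and *Pecam1* are shared by most endothelial cells, and *Plvap* and *Cd34* mark capillaries with diaphragms and continuous capillaries or larger vessels, respectively. How the expression of these 3 sets differed among the diets was asked.

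Values are fragments per kilobase (FPKM), that is, fragments on a gene divided by its length and by the size of the library, a level that allows genes to be compared with each other. Fragments recovered from the values numbered 17169064 to 25220880 on genes per mouse. The 10 genes were covered unequally. *Cd34* had 10 to 76 fragments per mouse and *Lyve1* 70 to 457, whereas *Stab2* had 1318 to 2393. As a check of the tissue, the summed level of 7 hepatocyte markers was 27717 to 43293 FPKM in every mouse, and all 5 sinusoidal genes were above 0 in every mouse. The mean of *Cd34* was below 1 FPKM, so it was not among the 11083 genes that were tested, and 9 of the 10 genes were. *Cd34* was tested only in an added fit on the recovered fragments, chosen after the data had been seen.

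The 250 bases before the transcription start were read for 6 of the 10 genes from RefSeq (GRCm38.p6), and 3 are shown because their genes behaved differently. *Eng* and *Cd34* were higher on the high-fat diet (*Cd34* in the added fit) whereas *Kdr* was not called. Each is written from 5′ to 3′ on the strand of its gene, and capitals mark matches on either strand to AGGAAG or CGGAAG, letters that ETS factors of endothelial cells can recognise.
Eng, chr2:32646345-32646594, plus strand: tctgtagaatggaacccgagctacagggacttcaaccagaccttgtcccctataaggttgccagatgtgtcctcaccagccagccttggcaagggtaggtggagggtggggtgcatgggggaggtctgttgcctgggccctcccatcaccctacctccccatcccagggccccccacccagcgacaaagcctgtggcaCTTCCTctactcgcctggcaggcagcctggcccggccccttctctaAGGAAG
Cd34, chr1:194938571-194938820, plus strand: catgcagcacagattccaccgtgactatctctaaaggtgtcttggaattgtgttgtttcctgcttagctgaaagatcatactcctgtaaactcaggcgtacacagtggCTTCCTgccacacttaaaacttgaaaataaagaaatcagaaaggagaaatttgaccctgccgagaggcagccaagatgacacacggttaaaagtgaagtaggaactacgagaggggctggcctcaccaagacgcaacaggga
Kdr, chr5:75978456-75978705, minus strand: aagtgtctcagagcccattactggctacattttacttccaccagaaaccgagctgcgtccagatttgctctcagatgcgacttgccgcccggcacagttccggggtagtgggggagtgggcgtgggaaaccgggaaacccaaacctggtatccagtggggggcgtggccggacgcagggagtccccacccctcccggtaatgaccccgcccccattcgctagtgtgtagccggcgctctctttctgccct
*Eng* held 2 such matches, *Cd34* 1 and *Kdr* 0. Of the windows not shown, *Clec4g* held 3, *Stab2* 1 and *Fcgr2b* 0. The starts used are those of RefSeq, and for 2 of these genes they differ from the start of the gene as quantified. The *Fcgr2b* window lies inside the quantified gene, which begins at base 170976547. The *Stab2* window runs partly into its gene, which begins at base 87008025. In control against ND-fed mice, *Clec4g* and *Stab2* were called neither in the fit on FPKM nor in the added fit. Of these 2 fits, *Fcgr2b* was called only in the added one. The matches thus did not follow the calls in either fit. Over 32851 promoter windows of this length, 39.2% held at least 1 match, so these letters are common. AGATAA or TGATAA, letters read by GATA factors, was present in none of the 6 windows and in 16.6% of all windows. A match is a description of the sequence only.

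On the high-fat diet, *Plvap* and *Lyve1* were at least doubled in mean level over ND-fed mice, *Pecam1*, *Eng* and *Oit3* were moderately higher, and *Stab2* and *Kdr* stayed close to the ND level. Of the 9 genes tested, 5 were called higher and 0 lower in control against ND-fed mice (limma on log2(FPKM + 1), Benjamini-Hochberg adjusted p under 0.05 over all genes). Over all tested genes, 16.2% were called higher and 19.1% lower. With the additional requirement of a log2 fold change above 1, *Lyve1* and *Plvap* remained, 2 of 9 against 2.25% of all genes. In RNA from whole liver, a higher level per endothelial cell and a larger number of endothelial cells cannot be told apart.

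The level of *Plvap*, which encodes the protein of the diaphragms that span endothelial pores and caveolae, was 20.6, 17.7 and 24.8 FPKM in the ND-fed mice and 45.9, 37.6 and 47.2 FPKM in the control mice. The HYA-treated mice were at 39.4, 36.0 and 35.9 FPKM, and the LA-treated mice at 50.3, 40.1 and 40.4 FPKM. Every mouse on a high-fat diet was above every ND-fed mouse. The log2 fold change of *Plvap* in control against ND-fed mice was 1.02 (SE 0.13, adjusted p = 0.000185, limma). *Plvap*, with the capillary-type role, was also the most abundant of the 10 genes in the high-fat groups, ahead of *Eng*.

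*Cd34*, a surface sialomucin of continuous capillaries, larger vessels and blood progenitors, was the least abundant of the 10 genes. The ND-fed mice were at 0.148, 0.0864 and 0.206 FPKM and the control mice at 0.485, 0.475 and 0.384 FPKM. The HYA-treated mice were at 0.276, 0.197 and 0.305 FPKM, and the LA-treated mice at 0.380, 0.335 and 0.468 FPKM. The control and LA ranges lay above the ND range, the HYA range lay below both the control and the LA range, and the HYA and ND ranges overlapped. In the added fit (voom on recovered fragments, genes with a mean of at least 10 fragments), control mice had 3.11 times the *Cd34* level of the ND group (log2 fold change 1.64, SE 0.31, adjusted p = 0.00142). That fit called 17.6% of its 14353 genes higher.

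*Lyve1*, a hyaluronan receptor of sinusoidal and lymphatic endothelium, had the largest log2 fold change of the 9 tested genes. Its level was 1.36, 1.88 and 2.21 FPKM in ND-fed mice and 6.98, 5.15 and 6.61 FPKM in control mice. The HYA-treated mice were at 7.23, 4.44 and 4.41 FPKM, and the LA-treated mice at 7.34, 5.98 and 5.61 FPKM. No ND-fed mouse reached the lowest high-fat mouse. The log2 fold change in control against ND-fed mice was 1.37 (SE 0.18, adjusted p = 0.000225, limma), which understates the change of a gene at this level because 1 FPKM was added to each value. The ratio of the mean levels was 3.44. Of the lymphatic markers *Pdpn*, *Ccl21a*, *Mmrn1* and *Prox1*, only *Prox1*, which hepatocytes also express, passed the filter on low values, and its log2 fold change was -0.14 (adjusted p = 0.506, limma). *Ccl21a* was at 0 in at least 1 mouse.

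The other 4 sinusoidal genes differed less. *Oit3*, a secreted protein of sinusoidal endothelium, was at 11.2, 10.4 and 14.4 FPKM in ND-fed mice and at 14.0, 14.9 and 15.7 FPKM in control mice, so that the highest ND-fed mouse lay above the lowest control mouse. Its log2 fold change was 0.30 (SE 0.11, adjusted p = 0.0498, limma), at the edge of the threshold. *Fcgr2b*, the inhibitory Fc receptor that takes up immune complexes in sinusoids, was at 10.7 ± 1.7 FPKM (SD, n = 3) in ND-fed and 13.1 ± 0.7 FPKM in control mice (log2 fold change 0.28, adjusted p = 0.0621, limma). In the added fit on fragments the adjusted p of *Fcgr2b* was 0.0489. *Clec4g*, the lectin LSECtin, was at 21.8 ± 3.0 FPKM and 25.4 ± 2.9 FPKM (log2 fold change 0.22, adjusted p = 0.155, limma). *Stab2*, the hyaluronan scavenger receptor stabilin-2, was at 10.6 ± 1.0 FPKM and 11.4 ± 0.6 FPKM (log2 fold change 0.09, 95% interval -0.09 to 0.27, adjusted p = 0.42, limma). None of these sinusoidal genes was called lower in the control mice.

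The 3 genes shared by most endothelial cells did not move together. *Pecam1*, the junctional adhesion molecule CD31, was at 4.19, 3.39 and 3.94 FPKM in ND-fed mice and at 5.86, 4.98 and 6.38 FPKM in control mice, with no overlap (log2 fold change 0.48, SE 0.09, adjusted p = 0.00225, limma). *Eng*, endoglin, a co-receptor for BMP9 and TGF-β, was at 22.7, 17.9 and 24.6 FPKM and at 28.2, 25.9 and 29.1 FPKM, again with no overlap (log2 fold change 0.35, SE 0.10, adjusted p = 0.024, limma). *Eng* shares 61 bases with the oppositely transcribed *Fpgs*, whose mean was lower in control mice (28.9 FPKM) than in ND-fed mice (45.2 FPKM). *Kdr*, the receptor VEGFR2, was at 8.87, 7.08 and 8.08 FPKM in ND-fed and at 7.87, 7.87 and 7.58 FPKM in control mice (log2 fold change -0.03, 95% interval -0.22 to 0.16, adjusted p = 0.793, limma). Its control mice lay inside the range of the ND-fed mice. Without strand information, reads in the shared part of such gene pairs cannot be assigned. *Plvap* shares 1819 bases with *Gtpbp3* on the other strand, which was at 2.29 FPKM in ND-fed and 2.18 FPKM in control mice.

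**Figure D1:**
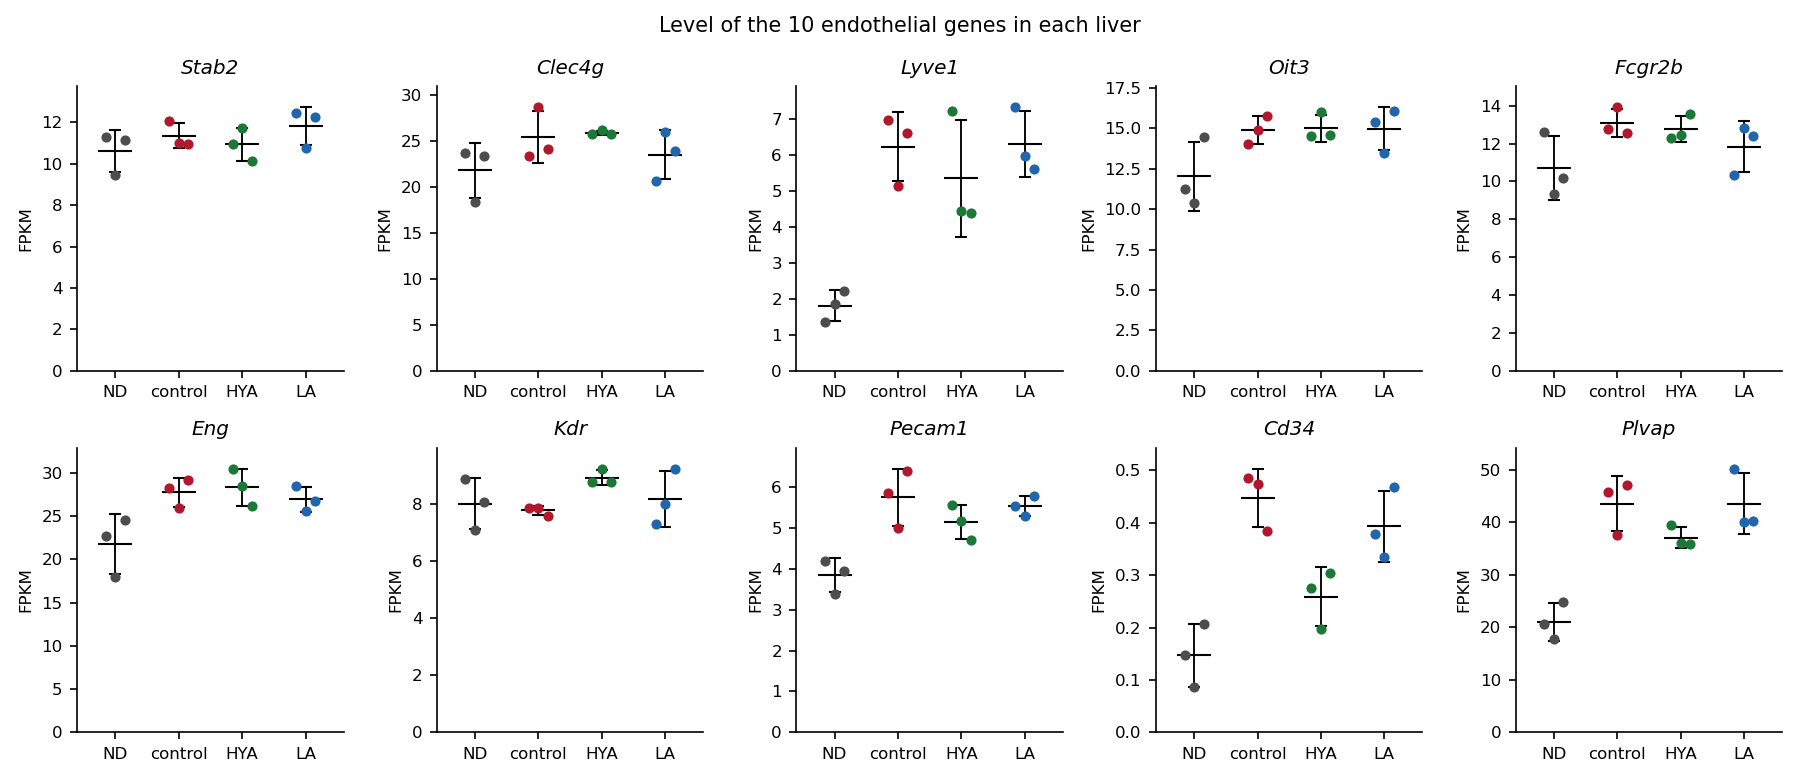
Level in FPKM (y axes, linear and starting at 0) of each of the 10 genes by diet group (x axes), with 1 point per mouse and the mean ± SD of 3 mice in black. *Plvap*, *Lyve1*, *Pecam1*, *Eng* and *Cd34* show all control mice above all ND-fed mice, whereas *Stab2* and *Kdr* overlap.

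The groups did not overlap for *Lyve1*, *Plvap*, *Pecam1* and *Eng*, 4 of the 9 tested genes, with all control mice higher, while 19.9% of all tested genes separated in this direction. ND mouse 2 had the lowest level of its group for 9 of the 10 genes. When it was left out, 3 genes were called, *Lyve1*, *Plvap* and *Pecam1*, and *Eng* and *Oit3* were not. The log2 fold change of *Plvap* stayed between 0.91 and 1.28 over the settings tried, and that of *Lyve1* between 1.24 and 1.81. These ranges do not cover the added fits on fragments that left out 1 mouse.

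The scale of the libraries bears on the small differences. Column totals of the deposited values were 407652 to 429286 in ND-fed and 342146 to 368132 in control mice. When every mouse was set to the same total (TPM), the log2 fold change of the median gene in control against ND-fed mice moved from -0.04 to 0.17, and 8 of the 9 genes were called higher rather than 5, with *Kdr* the exception. The share of all genes called higher rose as well, from 16.2% to 34.2%, and it was 32.6% in LA-treated against ND-fed mice on that scale. The calls for *Plvap*, *Lyve1*, *Pecam1*, *Eng* and *Oit3* were made on both scales. Relative to the median gene on the deposited scale, *Lyve1* was 1.41, *Plvap* 1.06, *Pecam1* 0.52 and *Eng* 0.39 log2 units higher, and *Stab2* and *Kdr* were 0.13 and 0.01 higher.

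Ratios of genes within a mouse do not depend on this scale and are given as descriptions. The ratio of *Plvap* to *Pecam1* was 4.91, 5.24 and 6.29 in ND-fed mice and 7.83, 7.54 and 7.40 in control mice. All control mice thus had more *Plvap* per *Pecam1* than all ND-fed mice. The ratio of *Plvap* to *Kdr* had a mean of 2.63 ± 0.39 (SD, n = 3) in the ND group and 5.61 ± 0.75 in the control group. It was 4.16 ± 0.30 with HYA and 5.42 ± 1.30 with LA. The highest HYA-treated mouse (4.49) lay below the lowest control mouse (4.77) and above the lowest LA-treated mouse (4.37). The ratio of *Stab2* to *Pecam1* was 2.77 ± 0.07 in ND-fed mice and 2.06, 2.21 and 1.72 in the control mice. It was 2.13 ± 0.15 with HYA and 2.13 ± 0.11 with LA. Every mouse on a high-fat diet thus had less *Stab2* per *Pecam1* than every ND-fed mouse. The mean level of *Stab2* itself was not lower in control mice (11.4 FPKM) than in ND-fed mice (10.6 FPKM), whereas *Pecam1* was higher. The ratio of *Pecam1* to *Kdr* was 0.473 to 0.487 in ND-fed mice and 0.633 to 0.842 in control mice. A ratio to *Pecam1* therefore depends on this choice of denominator.

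The 2 genes of hyaluronan binding parted from each other, with a ratio of *Lyve1* to *Stab2* of 0.173 ± 0.045 in ND-fed and 0.549 ± 0.072 in control mice. The ratio of *Cd34* to *Pecam1* was 0.0377 ± 0.0136 in the ND group and 0.0794 ± 0.0178 in the control group. It was 0.0509 ± 0.0134 with HYA and 0.0710 ± 0.0092 with LA. Its HYA values overlapped with both the ND and the control values.

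**Figure D2:**
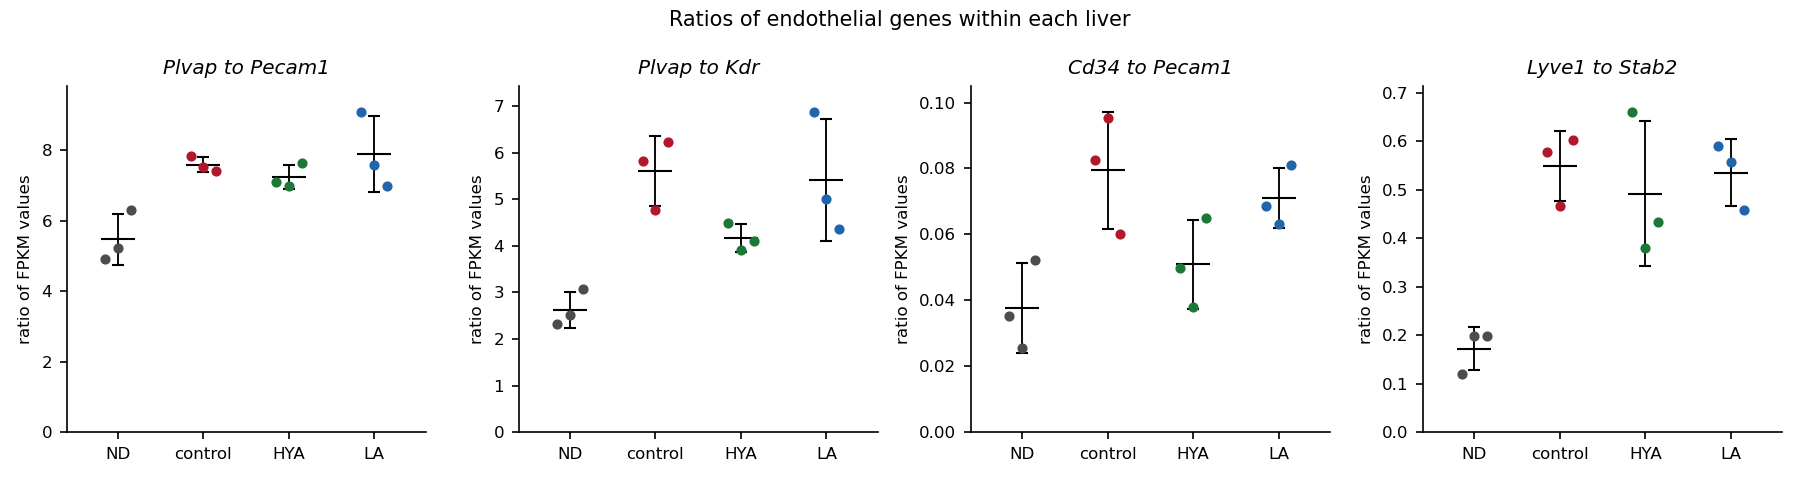
Ratios of FPKM values (y axes, linear and starting at 0) of 4 gene pairs within each liver, by diet group, with 1 point per mouse and the mean ± SD of 3 mice in black. The *Plvap* to *Pecam1* ratio is higher in all mice on a high-fat diet (6.98 to 9.09) than in ND-fed mice (4.91 to 6.29), and the *Lyve1* to *Stab2* ratio is higher in all of them (0.379 to 0.661) than in ND-fed mice (0.121 to 0.199).

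Supplementing the high-fat diet with HYA changed none of the 9 tested genes past the threshold. In HYA-treated against control mice 0 of 9 were called, where 1.57% of all tested genes were called higher and 1.23% lower, and none of the 9 had an unadjusted p under 0.05 (limma). The calls over all genes in this comparison depended on single mice. They numbered 174 higher and 136 lower with all mice, 377 and 276 without control mouse 2, and 0 and 0 without HYA mouse 2 (1473 genes at an unadjusted p under 0.05) or with only the 2 groups fitted (1723 genes). Without control mouse 1 they numbered 17 and 12. Every call given below for HYA-treated against control mice in limma on log2(FPKM + 1) was therefore lost without HYA mouse 2 and in the fit of 2 groups. *Plvap* had a log2 fold change of -0.22 (95% interval -0.50 to 0.07, adjusted p = 0.402) and *Lyve1* of -0.21 (95% interval -0.60 to 0.18, adjusted p = 0.596). *Pecam1* was at -0.13 (95% interval -0.33 to 0.07, adjusted p = 0.487).

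*Kdr* was at 8.78, 9.22 and 8.75 FPKM in HYA-treated mice, all above the 3 control mice, with a log2 fold change of 0.18 (95% interval -0.01 to 0.37, adjusted p = 0.304, limma). It was the only one of the 9 whose HYA range lay above the control range, as did 12.7% of all tested genes. No tested gene of the 9 lay below, as did 8.87% of all tested genes. *Stab2*, *Clec4g*, *Oit3*, *Fcgr2b* and *Eng* had log2 fold changes between -0.05 and 0.03 in HYA-treated against control mice.

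*Cd34* had the largest difference in HYA-treated against control mice, with all HYA-treated mice below all control mice. In the added fit on fragments it was 0.585 times the control level (log2 fold change -0.77, SE 0.25, 95% interval -1.31 to -0.24), and its adjusted p of 0.102 did not pass the threshold (voom with limma). That fit called 1.84% of genes lower. Over the fits that left out 1 mouse, the log2 fold change of *Cd34* ranged from -0.92 to -0.61.

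LA at the same dose left the 9 tested genes within a narrow band of the control level. In LA-treated against control mice 0 of 9 genes were called, as were 0% of all tested genes higher and 0% lower. The log2 fold changes ran from -0.14 for *Fcgr2b* (95% interval -0.37 to 0.09) to 0.06 for *Kdr* (95% interval -0.13 to 0.25), with *Plvap* at 0.00 (95% interval -0.29 to 0.28). *Cd34* in the added fit was at -0.19 (95% interval -0.66 to 0.29, adjusted p = 0.999). All 10 LA ranges overlapped with the control ranges, and over all tested genes 7.55% separated in either direction, so the genes were near the background here. A p above the threshold does not show that levels were equal.

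HYA and LA, which differ by the hydroxyl group that bacteria add to LA and by the double bond lost with it, were compared directly at their common dose of 1%. Of the 9 genes, 0 were called, where 0.235% of all tested genes were called higher and 0.253% lower in HYA-treated mice. *Plvap* was lower in every HYA-treated mouse than in every LA-treated mouse, with a log2 fold change of -0.22 (95% interval -0.50 to 0.07, adjusted p = 0.42, limma), a separation seen in this direction for 10.4% of all tested genes. *Lyve1* was at -0.22 (95% interval -0.62 to 0.17, adjusted p = 0.57) and *Clec4g* at 0.14 (95% interval -0.11 to 0.38, adjusted p = 0.57). *Cd34* was lower in every HYA-treated mouse than in every LA-treated mouse, with a log2 fold change of -0.58 in the added fit (95% interval -1.13 to -0.04, adjusted p = 0.253).

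**Figure D3:**
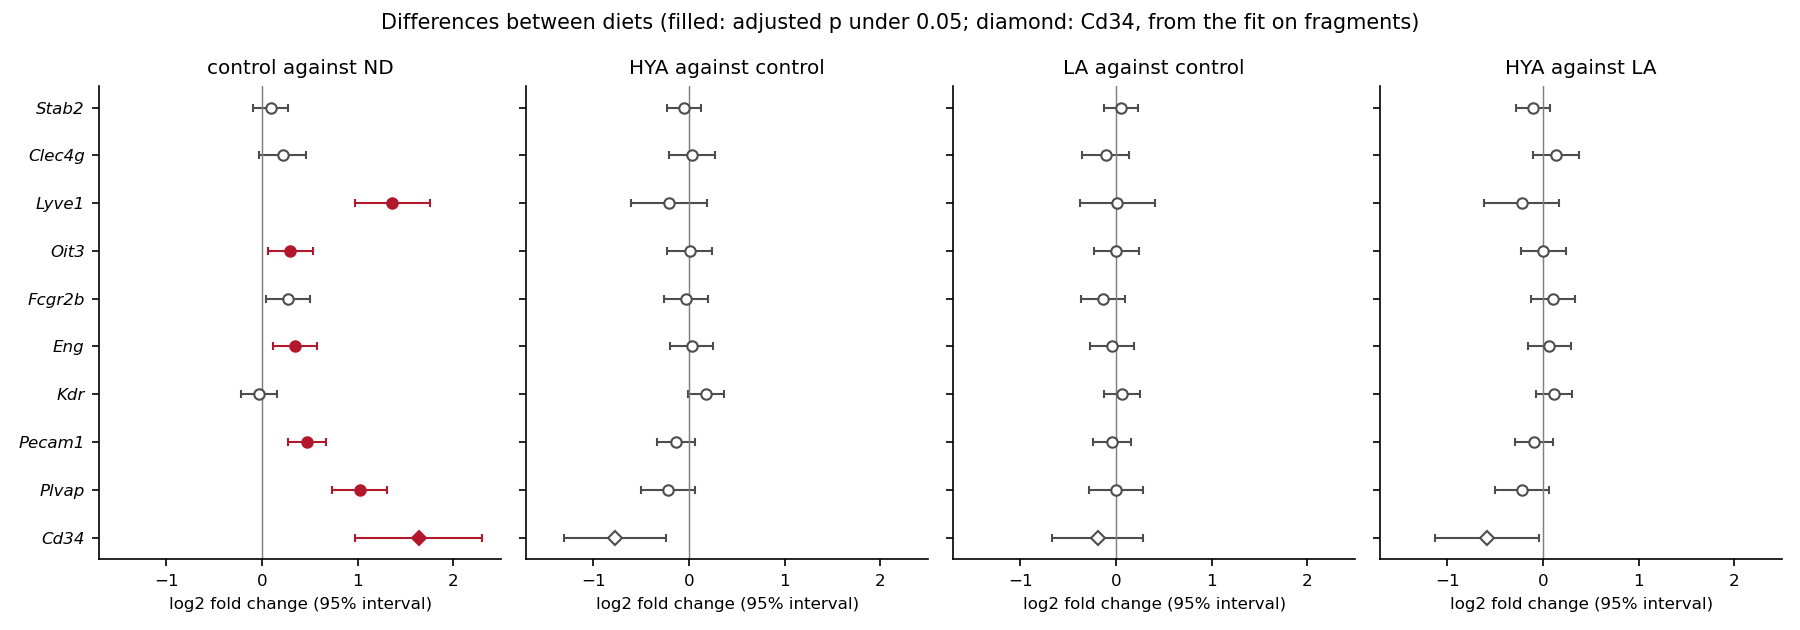
Log2 fold changes (x axes) with 95% intervals of the 10 genes (y axis) in 4 comparisons, filled where the adjusted p was under 0.05. Circles are from limma on log2(FPKM + 1), and the diamond is *Cd34* from the fit on recovered fragments. Filled points occur only in control against ND, and for *Cd34* the intervals in HYA against control and HYA against LA lie below 0 although its adjusted p was above the threshold.

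Both supplemented groups were also set against the ND-fed mice, which the comparison of control mice shares, so the values are given side by side. In HYA-treated mice 4 of 9 genes were called higher than in ND-fed mice, *Lyve1* (log2 fold change 1.16, adjusted p = 0.00152), *Plvap* (0.80, adjusted p = 0.00202), *Pecam1* (0.34, adjusted p = 0.0252) and *Eng* (0.37, adjusted p = 0.0316, limma). Over all tested genes 8.72% were called higher and 7.85% lower in this comparison. In LA-treated mice the same 4 genes were called higher, *Lyve1* (1.38), *Plvap* (1.02), *Pecam1* (0.44) and *Eng* (0.31), where 14.4% of all tested genes were called higher and 16.6% lower. The HYA range lay above the ND range for 6 of the 9 genes, among them *Clec4g* and *Oit3*, and the LA range for 4. Over all tested genes 16.6% separated in this direction with HYA and 20.5% with LA. Against the ND group, *Cd34* in the added fit was at 0.86 with HYA (adjusted p = 0.102) and at 1.45 with LA (adjusted p = 0.0039). The difference between these 2 effects is the HYA against LA comparison, which passed no threshold for any of the 10 genes.

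Related genes were taken from fixed lists, which were chosen with earlier results of these data known. Their counts are therefore no independent support, and not all of the genes are particular to endothelial cells. For the counts in this and the next paragraphs, 16.2% of all tested genes were called higher and 19.1% lower in control against ND-fed mice. In HYA-treated against control mice the shares were 1.57% and 1.23%. Of 14 other sinusoidal genes, 4 were called higher and 1 lower in control against ND-fed mice (median log2 fold change 0.23). The scavenger receptor *Stab1* rose from 7.27 to 9.45 FPKM (0.34, adjusted p = 0.00156), *Tfpi*, an inhibitor of the tissue factor pathway, rose by 0.41 (adjusted p = 0.00165), and *Flt4*, the receptor VEGFR3, rose by 0.55 (adjusted p = 0.0117). The decrease was in *Ehd3*, a membrane traffic gene of sinusoidal cells, from 13.4 to 10.6 FPKM, and it was also the 1 gene of the list called in HYA-treated against control mice, where it was higher (14.0 FPKM, log2 fold change 0.37, adjusted p = 0.0487, limma), a call lost without HYA mouse 2. *Bmp6*, an inducer of hepcidin made by sinusoidal endothelium, had a log2 fold change of 0.32 in that comparison (adjusted p = 0.0883).

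Of 18 other vessel-wide genes, 9 were called higher and 1 lower in control against ND-fed mice (median 0.28). *Egfl7* rose by 0.35 (adjusted p = 0.000538) and *Ramp2* by 0.56 (adjusted p = 0.00127), whereas *S1pr1*, the sphingosine-1-phosphate receptor, fell from 27.0 to 12.4 FPKM (adjusted p = 0.000194, limma). None of the 18 was called in HYA-treated against control mice, where *Tie1* (-0.22, adjusted p = 0.114) and *S1pr1* (0.35, adjusted p = 0.19) had the lowest p.

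Of 20 other capillary and large-vessel genes, 7 passed the filter, and 4 of them were called higher and 0 lower in control against ND-fed mice. Without *Esm1*, which was under 1 FPKM in ND-fed mice and passed the filter through the high-fat groups, 3 of 6 were called. The 4 were *Vcam1*, an adhesion molecule for leukocytes (1.20 to 4.18 FPKM), *Fabp4*, the fatty acid carrier of capillaries and adipocytes (1.63 to 5.77 FPKM), *Thbd*, thrombomodulin (1.37 to 2.57 FPKM), and *Esm1* (0.516 to 1.66 FPKM). In HYA-treated against control mice 1 of the 7 was called lower, *Thbd* (log2 fold change -0.31, adjusted p = 0.0487, lost without HYA mouse 2), while *Vcam1* was at -0.43 (adjusted p = 0.0736) and *Fabp4* at -0.51 (adjusted p = 0.134, limma).

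A basement membrane is what sinusoids normally lack. In RNA from whole liver, the cells that expressed its genes cannot be told apart. Of 13 basement membrane genes 11 were tested, and 9 were called higher and 1 lower in control against ND-fed mice, with a median log2 fold change of 0.71. *Sparc*, a matrix protein that binds collagen, rose from 12.8 to 32.8 FPKM (adjusted p = 3.9e-05), nidogen *Nid1* from 3.07 to 10.1 FPKM (adjusted p = 0.000101) and the type IV collagen *Col4a2* from 4.68 to 10.8 FPKM (adjusted p = 0.000179, limma). The decrease was in *Col18a1* (174 to 138 FPKM), which hepatocytes express. In HYA-treated against control mice 0 of the 11 were called, with a median of -0.29. *Nid1* was at -0.69 (adjusted p = 0.0512), *Sparc* at -0.50 (adjusted p = 0.0631) and *Col4a2* at -0.44 (adjusted p = 0.104). In LA-treated against control mice the median was -0.02.

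The ligands and effectors of *Kdr* and *Eng* were mixed. Of 11 tested genes of the VEGF and nitric oxide pathway, 5 were higher and 2 lower in control against ND-fed mice. Some genes also stand in the lists above, *Flt4*, *Flt1* and *Cav1* of this list and *Bmp2* and *Bmp6* of the endoglin list. The counts of the lists are therefore not independent of each other. The co-receptor *Nrp2* rose by 0.68 (adjusted p = 0.000237) and *Vegfb* by 0.64 (adjusted p = 0.000389), whereas the co-receptor *Nrp1* fell by 0.59 on the log2 scale (9.18 to 5.75 FPKM, adjusted p = 0.000727, limma). None was called by limma on log2(FPKM + 1) in HYA-treated against control mice, where *Nrp1* was at 0.37 (adjusted p = 0.0607). In the added fit on fragments, which called 1.72% of its genes higher in this comparison, *Nrp1* was called (0.42, SE 0.10, adjusted p = 0.037). Of 18 genes around endoglin and the BMP receptors, 5 were higher and 0 lower in control against ND-fed mice, with *Tgfb1* at 0.60 (adjusted p = 0.00162), *Tgfbr2* at 0.68 (adjusted p = 0.00812) and the BMP target *Id1* at 0.98 (adjusted p = 0.0102). The log2 fold changes of the 18 ran from -1.20 to 0.98, and 10 were positive. Their summed level was lower in control mice (411 to 687 FPKM) than in ND-fed mice (800 to 1052 FPKM). In that comparison the added fit called 5 higher and 1 lower. None of the 18 was called by limma on log2(FPKM + 1) in HYA-treated against control mice, and in the added fit *Smad9*, a BMP effector, was called higher (0.85, SE 0.21, adjusted p = 0.0419).

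**Figure D4:**
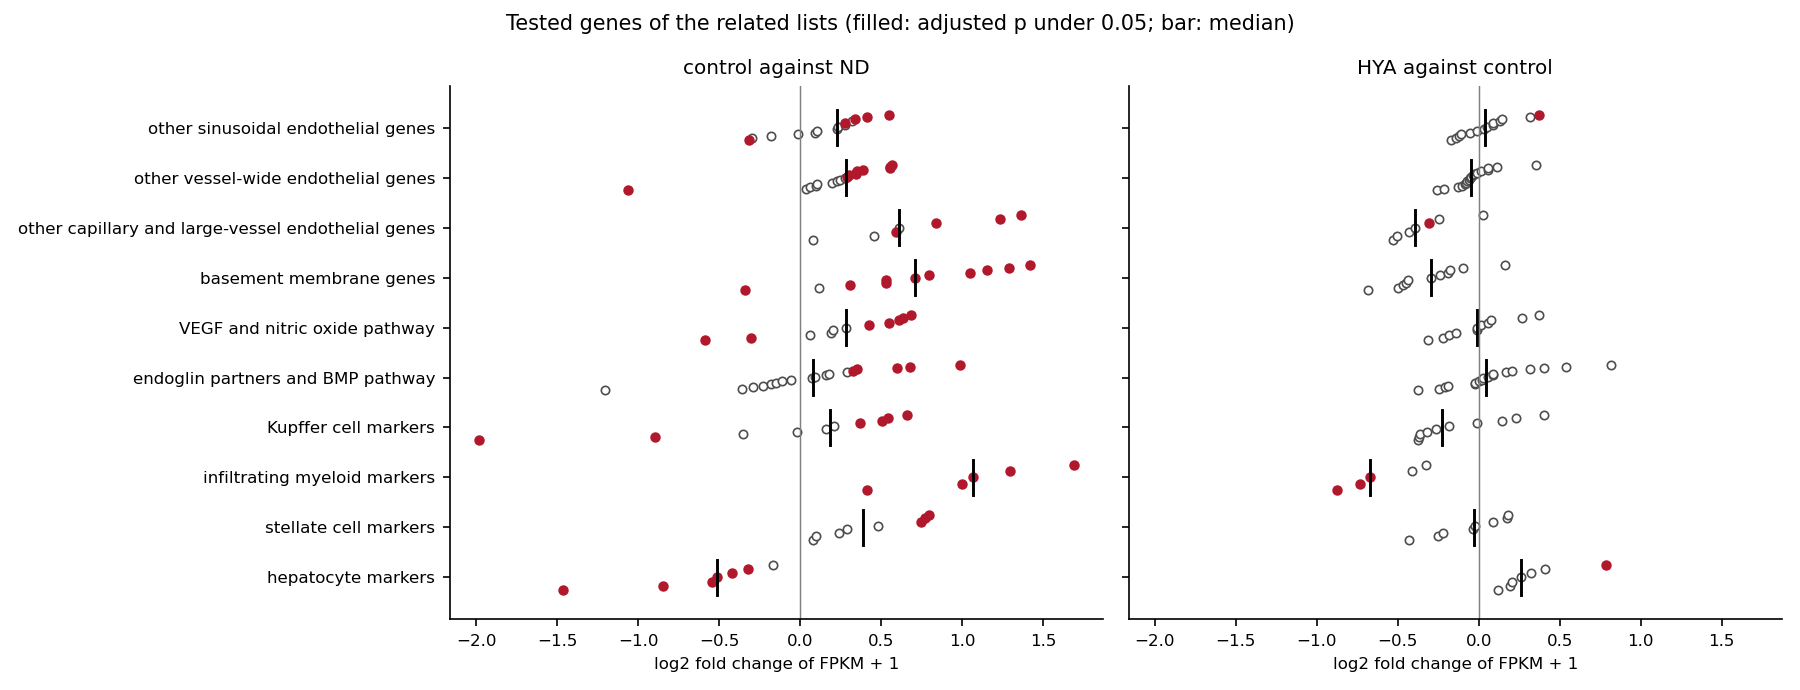
Log2 fold changes of FPKM + 1 (x axes, same scale in both panels) for the tested genes of 10 lists (y axis) in control against ND and HYA against control, with 1 point per gene, filled where the adjusted p was under 0.05, and a bar at the median. Basement membrane genes lie mostly right of 0 in the first panel (median 0.71) and mostly left of 0 in the second (median -0.29, 0 of 11 called).

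Markers of other liver cells moved in the same comparisons, where 16.2% of all tested genes were called higher and 19.1% lower in control against ND-fed mice. All 5 tested markers of infiltrating myeloid cells were called higher in control against ND-fed mice, led by *Gpnmb*, *Itgax* and *Cd9*, and these 3 were called lower in HYA-treated against control mice, calls that were lost without HYA mouse 2. *Gpnmb* and *Itgax* were under 1 FPKM in ND-fed mice and passed the filter through the high-fat groups, so the count is no measure of the list. Over the 9 listed genes their summed level was 69.7 to 95.5 FPKM in the ND group, 115 to 151 FPKM in the control group and 90.3 to 115 FPKM with HYA. Of 10 Kupffer cell markers, 4 were higher (*C1qb* foremost) and 2 lower (*Marco* and *Timd4*) in control against ND-fed mice, and 0 were called in HYA-treated against control mice. Their sum was 249 to 379 FPKM in the ND group, 375 to 383 FPKM in the control group and 266 to 376 FPKM with HYA. *Fcgr2b* is also expressed by macrophages and B cells, *Lyve1* by some macrophages and *Pecam1* by leukocytes and platelets. Of 8 stellate cell markers, 3 were higher, *Dcn*, *Colec11* and *Pdgfrb*, with sums of 88.9 to 123 FPKM in the ND group and 131 to 154 FPKM in the control group, and 0 were called in HYA-treated against control mice.

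The calls of HYA-treated against control mice in this paragraph too were lost without HYA mouse 2. Hepatocyte markers moved the other way, with 6 of 7 lower in control against ND-fed mice, among them *Cps1*, *Alb* and *Hnf4a* (median -0.51), and with *Cyp2e1* the 1 called in HYA-treated against control mice, where it was higher. Of 3 tested cholangiocyte markers 2 were higher in control mice, *Spp1* and *Epcam*, and both were called lower in HYA-treated against control mice (sums of 19.1 to 27.8 FPKM, 77.9 to 172 FPKM and 38.5 to 52.5 FPKM over 5 listed genes in the ND, control and HYA groups). The log2 fold changes of the 3 ran from -0.05 to 2.38 in control against ND-fed mice. The sums therefore do not describe each gene of the list. *Ighm* was the 1 tested of 6 B cell markers and *Pf4* the 1 tested of 5 platelet markers, and both were higher in control against ND-fed mice, while neither was called in HYA-treated against control mice. *Ighm* carried the B cell sum (9.13 to 17.7 FPKM in the ND group and 21.5 to 27.2 FPKM in the control group). In the added fit on fragments 2 of the 6 B cell markers were positive, with a median log2 fold change of -0.21, and *Ighm* was the 1 called. The platelet sum was 1.25 to 1.47 FPKM in the ND group and 2.44 to 3.80 FPKM in the control group, with the platelet genes *Gp9* and *Gp1bb* at 0 in at least 1 mouse. *Pf4* averaged under 1 FPKM in ND-fed mice and passed the filter through the high-fat groups, so its call is no measure of the list. In the added fit on fragments 1 of the 2 tested platelet markers was positive in control against ND-fed mice. None of 4 mesothelial markers was tested, with sums of at most 0.584 FPKM in any mouse. On the TPM scale the medians in control against ND-fed mice were 0.48 for the other sinusoidal, 0.54 for the other vessel-wide, 1.03 for the basement membrane and -0.28 for the hepatocyte genes. The part of these cell types in the levels of the 10 genes was not tested.

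Among the 9 mice on a high-fat diet, the genes varied along different lines. Pearson's r of log2(FPKM + 1) was 0.82 between *Lyve1* and *Plvap* and 0.86 between *Clec4g* and *Fcgr2b*, whereas it was -0.83 between *Clec4g* and *Plvap* and -0.75 between *Kdr* and *Plvap*. Over all 12 mice, *Clec4g* and *Plvap* had an r of 0.40 and *Lyve1* and *Plvap* of 0.96. These values are descriptions over mice from 3 or 4 groups, whose levels share the library scale.

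The pattern of *Plvap* over the 9 mice was most like those of *Loxl2*, a cross-linker of collagen (r = 0.98), of *Col14a1*, a collagen of fibrils (0.98), and of *Lamb1*, a laminin chain of basement membranes (0.98). That of *Cd34* was most like those of *Ncapd2* (0.94), *Asah1* (0.94) and *Rasip1*, a regulator of endothelial junctions (0.94). *Stab2* had *Dip2a* (0.97), *Sept4* (written 4-Sep in the deposited values, 0.92) and the endothelial *Mmrn2* (0.92). *Lyve1* had *Trp53i11* (0.96), *Ankrd40* (0.96) and *Ticam1* (0.95). The nearest gene of the others was *Rmnd1* for *Clec4g* (0.96), *Snx2* for *Oit3* (0.91), *Eif5a* for *Fcgr2b* (0.94), *Pik3c3* for *Eng* (0.95), *Abcd2* for *Kdr* (0.97) and *Tgif1* for *Pecam1* (0.96). Each was among the 3 closest of at least 10021 protein-coding genes over 9 mice. The highest of so many values over so few mice can be large even for unrelated genes.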

How the data were processed

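Liver RNA of 12 mice was sequenced from paired ends (Illumina HiSeq). The submitters' processing notes name fastp, HISAT2 2.0.5, featureCounts 1.5.0-p3 and GRCm38, without strand settings. The authors deposited FPKM values in 1 table, a column per mouse, scaled to library totals of their choice. The methods name TPM, but the column totals differed. All 12 columns were matched to the labels. Multiplied by gene length, the values of a column fell on whole steps (100%, tolerance 0.02 for values below 200 fragments), and fragments were recovered from them. This depth gives counting error only. Coordinates of all 10 genes were those of GENCODE M21.

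Log2(FPKM + 1) was fitted for genes averaging 1 FPKM or more with limma 3.58.1 in R 4.3.3 (empirical Bayes with trend, two-sided, 12 mice in 1 fit). Calls were adjusted p-values (Benjamini-Hochberg, all tested genes) under 0.05. A second rule also asked for a log2 fold change beyond 1 in size. Each sample was 1 mouse, and p-values measure the spread between mice. Mice of the same group correlated at 0.983 to 0.990 across genes. The members and lists were chosen with earlier results of these data known. Named were all 10 members in every comparison, up to 3 genes with the lowest p of each other list (other sinusoidal, vessel-wide and capillary genes, basement membrane, VEGF, endoglin, Kupffer, myeloid, B cell, platelet, stellate, lymphatic, mesothelial, hepatocyte and cholangiocyte lists), and the genes most like a member. *Esm1* and *Col18a1* were added where a count called for them. Promoters were not analysed here for *Plvap*, *Lyve1*, *Pecam1* and *Oit3*. The alternatives were a pseudocount of 0.1, other filters, median-ratio factors, TPM, voom, a replicate block, fits of 2 groups and leaving out each mouse. The voom fit with a filter of 10 fragments was added after the data had been seen. The methods were tested on simulated data.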

Additional observations from a re-analysis of the deposited data

How the results depend on the processing

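The 5 genes called in control against ND-fed mice became 8 on the TPM scale, 3 when only the 2 groups compared were fitted and 2 with the fold change rule. Over all 11083 tested genes, the number called higher went from 1795 to 3792, 1422 and 249, respectively. The count of these genes ranged from 3 to 5 when 1 mouse was left out, with 3 without ND mouse 2, control mouse 1 or control mouse 3. The number over all tested genes then ranged from 1364 to 1668. The 4 called in HYA-treated against ND-fed mice became 2 with no filter and 1 with the fold change rule, and ranged from 2 to 5 with 1 mouse left out (2 without ND mouse 2, HYA mouse 1 or HYA mouse 2). Over all tested genes, the number called higher went from 966 to 800 (of 26045), 141, and 667 to 856, respectively. The 4 called in LA-treated against ND-fed mice became 8 with TPM and 2 with the fold change rule, where the number over all tested genes went from 1600 to 3615 and 236. In the other 3 comparisons the count was 0 under every setting run, the added fits without 1 mouse not counted. The cause of these changes was not tested.

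At an adjusted p under 0.05 alone, *Lyve1*, *Plvap* and *Pecam1* were called in control against ND-fed mice in every fit run, the added fits without 1 mouse not counted. *Eng* was lost with 2 groups fitted (adjusted p = 0.0724) and in 3 of the fits without 1 mouse. *Oit3* was lost with a pseudocount of 0.1, no filter, median-ratio factors and 2 groups fitted. It was also lost without ND mouse 1, ND mouse 2 or any 1 control mouse, its adjusted p reaching 0.179 without ND mouse 2. With a replicate block the counts were 5 in control against ND, 4 in HYA against ND and 5 in LA against ND. Same-numbered mice of different groups correlated at -0.40 to 0.29 in 18 pairs, so the numbers were taken only as names.

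Uncalled values near 0 changed sign. *Kdr* in control against ND was 0.19 with TPM and -0.11 to 0.035 without 1 mouse, and in LA against control it was -0.021 to 0.13 without 1 mouse. In HYA against control, TPM gave -0.093 for *Clec4g*, -0.11 for *Oit3* and -0.095 for *Eng*, and leaving out 1 mouse gave -0.024 to 0.12, -0.032 to 0.049 and -0.023 to 0.083. *Fcgr2b* was -0.072 to 0.012 there.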

Other observations

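Capillary and large-vessel genes too low for the filter of 1 FPKM were tested on the recovered fragments, in a fit added after the data had been seen. The genes named next were chosen after their values were seen. *Selp*, P-selectin of activated endothelium and platelets, went from 0.245 to 1.11 FPKM (adjusted p = 0.000276) and *Vwf*, the clotting factor of large-vessel endothelium and platelets, from 0.74 to 1.11 FPKM (adjusted p = 0.000505, voom with limma). With HYA these genes were at 0.787 and 0.939 FPKM, and neither was called against the control mice.

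In the same fit 2 genes of that list were called lower in HYA-treated against control mice, *Vcam1* (log2 fold change -0.55, SE 0.13, adjusted p = 0.0404) and *Thbd* (-0.45, SE 0.12, adjusted p = 0.0491), as were 2 of 13 basement membrane genes, *Nid1* (-0.77, SE 0.17, adjusted p = 0.0317) and *Sparc* (-0.52, SE 0.12, adjusted p = 0.0389). On log2(FPKM + 1), *Thbd* was called and *Vcam1*, *Nid1* and *Sparc* were not, with adjusted p-values of 0.0736, 0.0512 and 0.0631. Over all genes the fit on fragments called 247 higher and 264 lower, and 21 and 20 without HYA mouse 2.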
